A study of Mus musculus with 4 samples.

Results

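Tmem176a, Tmem176b, Bace2 and Pi15 are 4 of the 32285 genes counted in single cells of C3H10T1/2, a mouse mesenchymal progenitor line. They were picked because their RNA was high in H3R26C progenitors given vehicle, so their rank and fold against H3WT in vehicle describe the choice and support nothing. The cells carried lentiviral, puromycin-selected and epitope-tagged H3.1, either H3WT or H3R26C (arginine 26 of the tail changed to cysteine), on top of their endogenous H3, and each line was a selected pool. Each line was given DMSO or 5-azacytidine (5-Aza), a DNA methyltransferase inhibitor, at 3 µM for 24 h, and the treated cultures were harvested on day 28. When the vehicle cells were harvested is not given in the sources used here, so time in culture and treatment cannot be told apart. Each of the 4 conditions was 1 library, so no test between conditions was possible, and every interval below is an exact 95% interval that covers counting error only.

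Cells with at least 5000 unique molecular identifiers (UMIs), at least 1500 genes and at most 20% mitochondrial (mt-) UMIs were kept, which gave 3710 H3WT DMSO, 5993 H3WT 5-Aza, 4727 H3R26C DMSO and 7619 H3R26C 5-Aza cells. Their median depth ran from 13123 to 22420 UMIs per cell, and 24 to 58 barcodes were shared by each pair of libraries. The 7 mesenchymal progenitor markers summed to between 10587 and 12048 CPM (counts scaled to a library total of 1000000) in every library, and each was counted in every library. Vim, Col1a1 and Col1a2 made up most of each sum, so the sums say little of the others. Thy1, 1 of the 7, was lower in H3R26C than in H3WT by at least 1 on the log2 scale. It stood at 37.6 against 110 CPM with DMSO and 50.5 against 123 CPM with 5-Aza, where 0.589% and 2.64% of all genes tested were lower. The tagged H3.1 transgene was not measured here, so the genotype labels were not checked.

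Tmem176a and Tmem176b encode related tetraspan membrane proteins of the wider MS4A family, known from immature dendritic cells and other myeloid cells. Bace2 encodes an aspartyl protease of the cell surface, the close relative of the β-secretase Bace1, and is known for cutting the amyloid precursor protein away from the β-site and for processing Pmel in pigment cells. Pi15 encodes a secreted protein of the CAP superfamily, a group of cysteine-rich proteins found outside the cell.

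In GENCODE M21 coordinates on GRCm38, Tmem176a (ENSMUSG00000023367) lies on the plus strand of chromosome 6 from 48840919 to 48847071, and Tmem176b (ENSMUSG00000029810) on the minus strand from 48833818 to 48841496. The genes lie head to head and their annotations overlap by 578 bases at their 5′ ends. The RefSeq starts nearest each other, at 48841374 for Tmem176b and 48841483 for Tmem176a, leave 108 bases between them. This interval holds no CpG, as do 19.5% of 32851 promoter stretches of the same length, and 1 E-box (CANNTG, which reads the same on both strands), a motif found in 36.9% of those stretches. The GC-box (GGGCGG), the TATA box (TATAAA) and the CCAAT box were searched for on both strands of the 5 RefSeq promoter windows of these genes, 300 bases each, and had 0 matches, while 35.7%, 13.6% and 37.4% of all such windows held them. The stretch of the RefSeq sequence around that E-box, at chr6:48841413-48841442 on the plus strand, is shown because this was the only motif of those searched for that lay between both starts, with the E-box in capitals.
Tmem176b to Tmem176a: ggccctcagtccCAGCTGcctgccaggaag
The match describes letters only, and no binding was measured. Bace2 (ENSMUSG00000040605) lies on chromosome 16 from 97356742 to 97442936 and Pi15 (ENSMUSG00000067780) on chromosome 1 from 17601901 to 17630939, both on the plus strand. Gm49681 overlaps 363 bases of Bace2 on the same strand, so reads there may not have been counted for Bace2. Gm28154 is annotated antisense to 15856 bases of Pi15, and Gm28154 had at most 3 UMIs in any library.

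The 4 members had their highest level in H3R26C DMSO and their next highest in H3R26C 5-Aza, and the intervals of the 4 libraries did not overlap for any member. Levels are the UMIs of a gene summed over the kept cells of a library, in CPM, and are compared between libraries and not between genes. Tmem176a stood at 1.91 CPM in H3WT DMSO, 2.63 in H3WT 5-Aza, 27.1 in H3R26C DMSO and 20.8 in H3R26C 5-Aza. Tmem176b stood at 4.69, 6.46, 51.8 and 31.04 CPM in the same order. Their order over the libraries was the same.

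Bace2 stood at 6.34 CPM in H3WT DMSO, 3.38 in H3WT 5-Aza, 59.6 in H3R26C DMSO and 27.0 in H3R26C 5-Aza, so its lowest library was H3WT 5-Aza and not H3WT DMSO. Pi15 stood at 14.0, 21.0, 121 and 54.1 CPM in the same order of libraries. The widest interval relative to its level was that of Tmem176a in H3WT DMSO, 1.63 to 2.22 CPM from 166 UMIs.

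In vehicle, the contrast used for the choice, H3R26C exceeded H3WT by 14.2-fold for Tmem176a (12.1 to 16.7), 11.05-fold for Tmem176b (9.98 to 12.3), 9.40-fold for Bace2 (8.61 to 10.3) and 8.67-fold for Pi15 (8.17 to 9.21). By this ratio on the log2 scale they ranked 4, 6, 8 and 9 from the top of the 12052 genes that averaged 1 CPM or more, of which 1.82% were higher in H3R26C by at least 1 on the log2 scale with a pseudocount of 1 CPM.

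**Figure D1:**
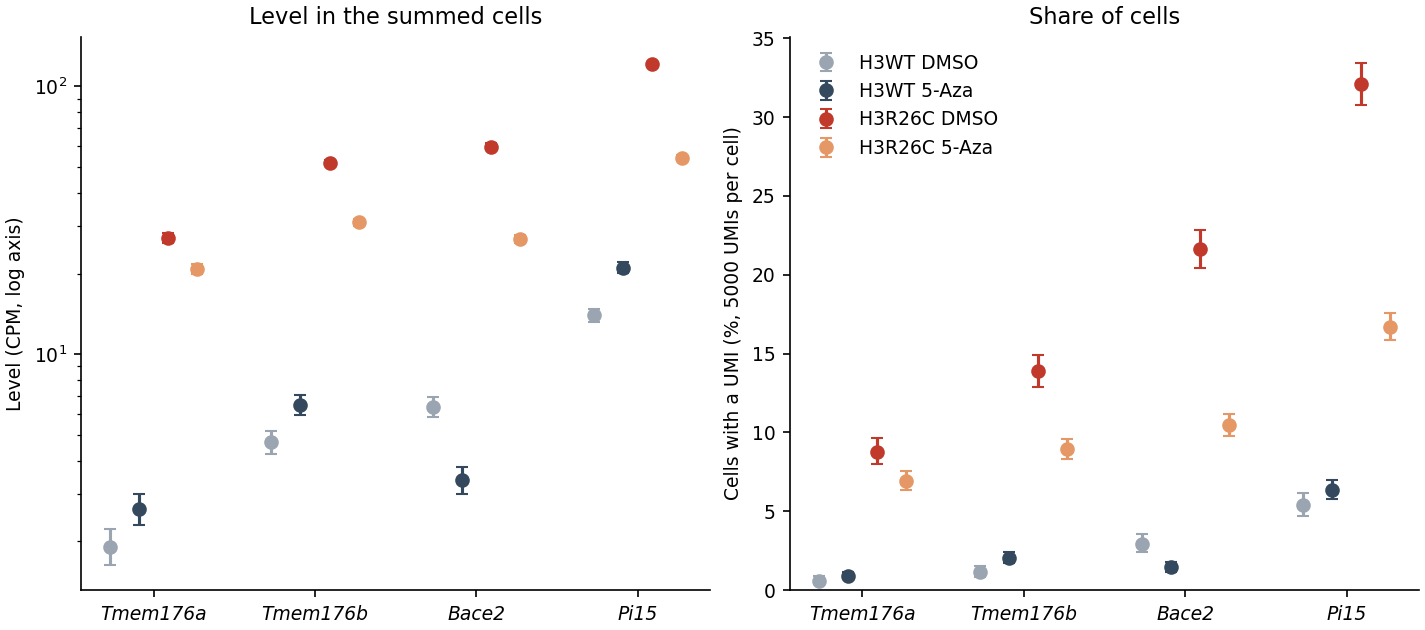
Left, level of each member in CPM on a log axis; right, percent of cells with a UMI after thinning to 5000 UMIs. Points are single libraries and bars are exact 95% counting intervals; for every member H3R26C DMSO is highest and H3R26C 5-Aza second, while Bace2 alone is lower in H3WT 5-Aza than in H3WT DMSO.

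Each member was found in a part of the H3R26C cells, at a depth where a cell that expresses it can read 0. To compare libraries of unequal depth, 5000 UMIs were drawn from every cell (thinning), and a gene was called found where the draw held at least 1 of its UMIs. In H3R26C DMSO, Tmem176a was found in 8.78% of cells (7.99 to 9.62), Tmem176b in 13.9% (12.9 to 14.9), Bace2 in 21.6% (20.5 to 22.8) and Pi15 in 32.1% (30.8 to 33.4). In H3WT DMSO these shares were 0.59%, 1.16%, 2.94% and 5.39%, and in H3WT 5-Aza 0.90%, 2.04%, 1.47% and 6.36%. The intervals of the 2 H3WT libraries overlapped for Tmem176a and Pi15. Without thinning, the H3R26C DMSO shares were 18.8%, 23.9%, 48.0% and 51.9%, against 2.29%, 3.58%, 9.46% and 13.3% in H3WT DMSO.

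Free RNA in the droplets can place a UMI in a cell that does not express the gene, so the shares were also taken in differentiated cells, the nearest gauge at hand. The first were cells with at least 3 of 8 adipocyte markers. In H3R26C DMSO there were 18 such cells, with a median depth of 19596 UMIs against 16598 in all cells. Tmem176a and Tmem176b were found in 0 of the 18, which allows a share of up to 16.7%, Bace2 in 1 and Pi15 in 4, so Pi15 was not absent there. In H3R26C 5-Aza the 207 cells with at least 8 of 12 skeletal muscle markers carried Tmem176a in 13.0% and Tmem176b in 16.9%, so they give no low background for these. The same cells, at a median depth of 19214 UMIs, carried Bace2 in 2.42% (0.79 to 5.55) and Pi15 in 5.31% (2.68 to 9.31), below the 10.5% and 16.7% of all cells of that library. The Bace2 and Pi15 shares therefore differed between kinds of cells beyond counting error. In barcodes with at least 500 and fewer than 2000 UMIs, Pi15 stood at 114% of its level in kept cells in H3R26C DMSO and 160% in H3R26C 5-Aza, and what part free RNA had in its shares was not tested.

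Where a member was found, it was mostly found at 1 UMI. In H3R26C DMSO 73.3% of Tmem176a, 57.0% of Tmem176b, 76.7% of Bace2 and 51.4% of Pi15 cells held 1 thinned UMI. At least 3 thinned UMIs were held by 0.63%, 2.35%, 1.27% and 7.76% of all cells of the library, and the highest thinned count in a cell was 4, 9, 6 and 20. In H3WT DMSO the same counts reached 2, 5, 2 and 3, and in H3WT 5-Aza 4, 11, 2 and 14, so for the Tmem176 genes H3R26C DMSO did not exceed H3WT 5-Aza. In H3R26C DMSO the upper end of the range was thus longest for Pi15, and no separate high class of cells appeared in the percent of cells at each count.

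**Figure D2:**
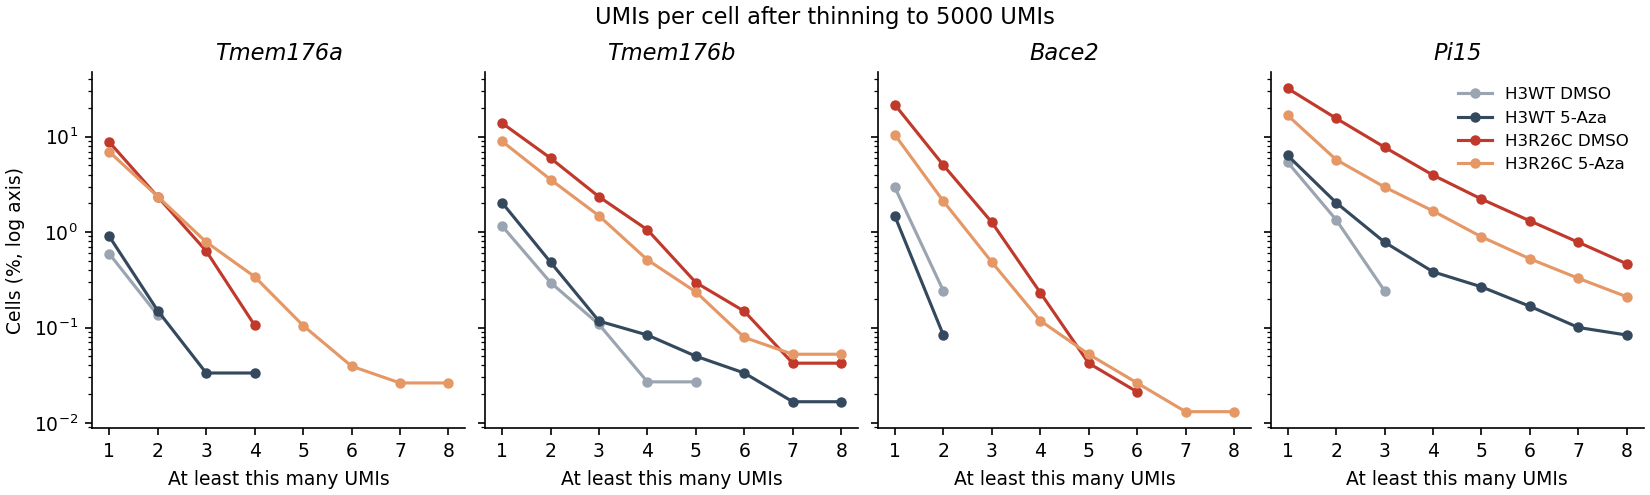
Percent of cells (log axis) with at least the given number of UMIs of each member after thinning to 5000 UMIs, for the 4 libraries, with counts of 0 cells not drawn. The curves fall without a break, and those of H3R26C DMSO lie above both H3WT curves at every count drawn, which ends at 8 UMIs.

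After thinning, most H3R26C DMSO cells with a member held only 1 of the 4, yet more cells held none or all 4 than independent genes would give. Without thinning, 1643 cells held 1 member and 2004 held at least 2, so that majority depends on depth. At least 1 member was found in 53.9% of H3R26C DMSO cells (52.5 to 55.4), against 9.54% in H3WT DMSO and 9.84% in H3WT 5-Aza. At least 2 were found in 17.8%, at least 3 in 4.23% (3.68 to 4.84) and all 4 in 18 cells, 0.38%. Among cells with a member, Pi15 alone was the most frequent state, in 1028 cells, followed by Bace2 alone in 403 and Bace2 with Pi15 in 308. In H3WT DMSO, 0 of 3710 thinned cells held 3 or more members, which allows a share of up to 0.0809%.

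Members of a pair were set against the number of cells expected from the product of their shares, here called the co-detection ratio. In H3R26C DMSO, Tmem176a and Tmem176b were found together in 260 cells where 57.6 were expected, a ratio of 4.51 (3.995 to 5.08). Tmem176b was found in 62.7% of the cells with Tmem176a and in 9.18% of the others. Bace2 was found with Tmem176a in 174 cells against 89.7 expected, a ratio of 1.94 (1.67 to 2.24), and with Tmem176b at a ratio of 1.80 (1.60 to 2.03).

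Pi15 went the other way with the Tmem176 genes. It was found with Tmem176a in 74 cells against 133 expected, a ratio of 0.56 (0.44 to 0.70), and with Tmem176b in 146 against 211, a ratio of 0.69 (0.59 to 0.81). In the cells with Tmem176a, Pi15 was found in 17.8%, against 33.5% in the others. Bace2 and Pi15 were found together at a ratio of 1.18 (1.07 to 1.29). These intervals take the single shares and the draw of UMIs as fixed, and cells of 1 library are not replicates. Over 20 further draws of 5000 UMIs per cell, the ratio of Bace2 with Pi15 ran from 0.96 to 1.08, all below 1.18, so no excess of this pair was established. Over the same draws Tmem176a with Tmem176b ran from 4.19 to 4.68, Bace2 with Tmem176a from 1.48 to 2.07 and with Tmem176b from 1.55 to 1.88, and Pi15 with Tmem176a from 0.54 to 0.72 and with Tmem176b from 0.57 to 0.76.

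After 5-Aza the ratio of each pair in H3R26C lay on the same side of 1 as with DMSO in the reported draw, but the intervals of all pairs with Pi15 held 1. The ratio was 6.84 for Tmem176a with Tmem176b, 2.15 and 1.95 for Bace2 with Tmem176a and Tmem176b, and 1.13 for Bace2 with Pi15 (0.96 to 1.33). For Pi15 it was 0.83 with Tmem176a (0.65 to 1.04) and 0.90 with Tmem176b (0.74 to 1.09). Over 20 further draws the ratio of Pi15 ran from 0.95 to 1.18 with Bace2, 0.74 to 0.98 with Tmem176a and 0.79 to 0.98 with Tmem176b. Those draws thin the same cells again and leave out the counting error of the cells. In H3WT the counts were small. Tmem176a and Tmem176b were found together in 5 DMSO cells against 0.25 expected and in 25 5-Aza cells against 1.10. Bace2 and Pi15 were found together in 15 H3WT 5-Aza cells against 5.59, a ratio of 2.68 (1.501 to 4.42), and the ratio of Tmem176b with Pi15 was 1.29 in H3WT DMSO and 1.03 in H3WT 5-Aza, with intervals that held 1. Further draws were made only in the H3R26C libraries, so how far the H3WT ratios move between draws was not tested.

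**Figure D3:**
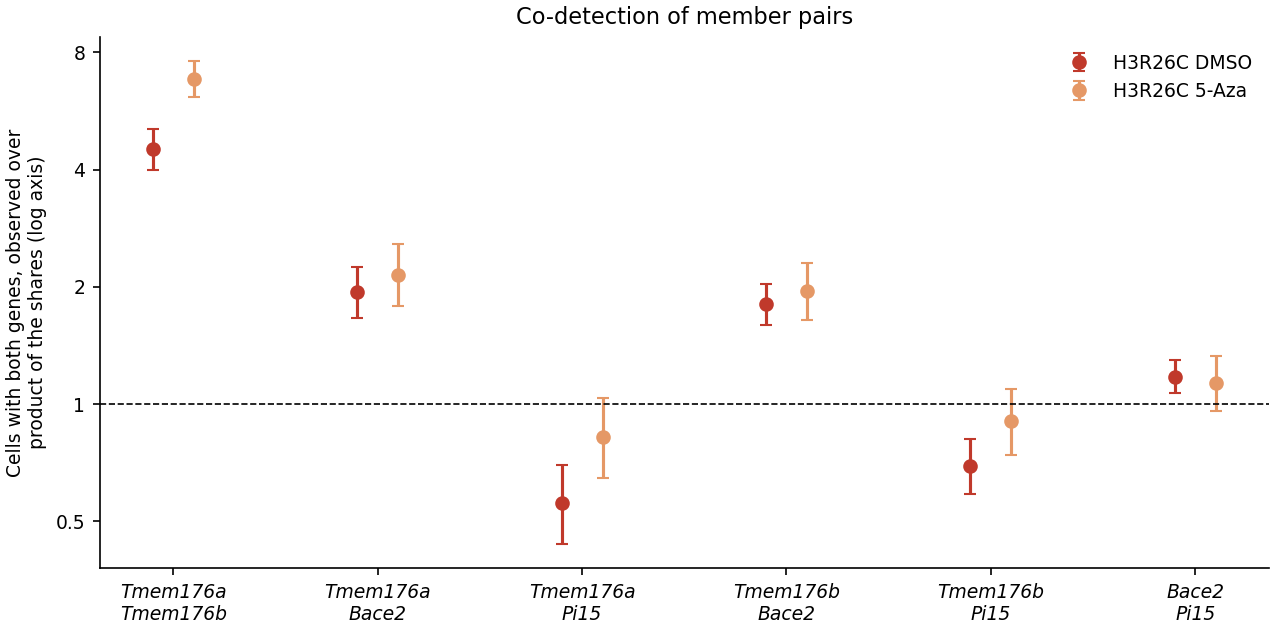
Cells with both members of a pair, observed over the product of the shares (log axis), in H3R26C DMSO and H3R26C 5-Aza, with exact 95% intervals of the observed count and a dashed line at 1. The Tmem176 pair stands highest in both libraries and the pairs of Pi15 with Tmem176a or Tmem176b lie below 1, with intervals that reach 1 after 5-Aza.

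The co-detection of Pi15 with Tmem176a was not the same in all H3R26C DMSO cells. When the cells were split into quartiles by their share of mt- UMIs, the ratio of Tmem176a with Pi15 was 0.40 (0.25 to 0.62) in the lowest quartile, 0.70 in the second, 1.003 in the third and 1.43 (0.84 to 2.29) in the highest. For Tmem176b with Pi15 it was 0.78, 0.66, 1.09 and 1.20, with intervals that all overlapped in the reported draw. In that draw the interval lay below 1 for Tmem176a in the lowest quartile and for Tmem176b in the second (0.47 to 0.90) and held 1 in the others. The third and highest quartiles had only 32 to 86 cells of each Tmem176 gene. Over 20 further draws the ratio of Tmem176a with Pi15 ran from 0.35 to 0.64 in the lowest, 0.74 to 0.93 in the second, 0.78 to 1.35 in the third and 0.74 to 1.76 in the highest quartile, and that of Tmem176b with Pi15 from 0.47 to 0.74, 0.63 to 0.93, 0.73 to 1.28 and 0.94 to 1.43. The reported 0.78 of Tmem176b with Pi15 in the lowest quartile lay above all 20 of its draws. The reported 0.70 of Tmem176a with Pi15 in the second quartile lay below all of its draws. That the interval around 0.78 held 1 or overlapped others thus rests on an atypical draw. For Tmem176a in the second quartile the draws had a median of 0.83, nearer 1 than the reported value. The reported 0.66 of Tmem176b with Pi15 in the second quartile lay near the low end of its draws, whose median was 0.79. That its interval lay below 1 therefore depends on the draw. In quartiles by UMI count the ratios of Pi15 with either Tmem176 gene ranged from 0.39 to 0.93 in the reported draw. After 5-Aza no order across mt- quartiles was established for Tmem176a with Pi15, since its ratio in the lowest quartile alone ran from 0.32 to 1.79 over the draws.

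**Figure D4:**
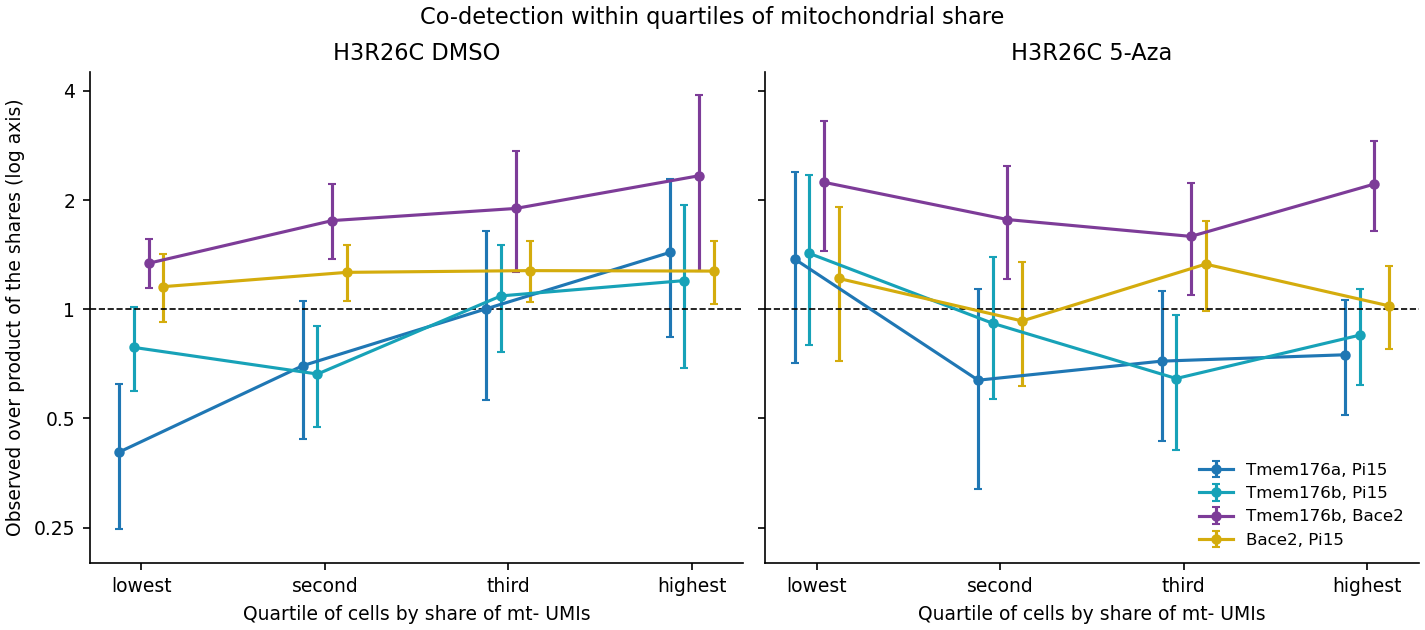
Co-detection ratio (log axis) within quartiles of cells by share of mt- UMIs for 4 member pairs, in H3R26C DMSO and H3R26C 5-Aza, with exact 95% intervals and a dashed line at 1. In H3R26C DMSO the points of Pi15 with Tmem176a and Tmem176b lie below 1 in the lowest and second quartiles and not in the third and highest. In the draw shown the intervals of Tmem176b with Pi15 overlap across the quartiles, and Tmem176b with Bace2 lies above 1 throughout.

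The members also divided by the kind of cell, grouped by marker genes found after thinning. In H3R26C DMSO the 302 cells with at least 3 of 6 mitosis genes carried Tmem176a in 26.2% (21.3 to 31.5) and Tmem176b in 36.1% (30.7 to 41.8), against 7.59% and 12.4% of the other cells. Bace2 was found in 28.8% of them against 21.1%, and Pi15 in 8.61% (5.70 to 12.4) against 33.7%. The cells with mitosis genes were deeper, with a median of 28441 UMIs against 16326, and lower in mt- share, 1.77% against 2.82%. Thinning was applied to both, and what part depth or mt- share had in the difference was not tested.

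In the lowest quartile of mt- share of H3R26C DMSO, Tmem176a was found in 21.2%, Tmem176b in 30.6% and Bace2 in 30.1% of cells, and Pi15 in 19.7%. In the highest quartile these shares were 2.71%, 3.05% and 16.7%, and Pi15 was found in 37.1%. By level, Tmem176b stood at 109 CPM in the lowest and 10.1 CPM in the highest quartile, and Pi15 at 58.9 and 172 CPM. The Tmem176 genes and Pi15 thus had opposite orders across these cells, with Bace2 nearer to the Tmem176 genes. Quartiles were taken within each library, whose median mt- share ran from 2.55% to 3.86%.

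Spp1, which encodes the matrix protein osteopontin, and Ly6a, a surface antigen of mesenchymal progenitors, were used by the study to mark cell groups. In H3R26C DMSO 856 cells held a thinned UMI of both. Tmem176a was found in 25.9% and Tmem176b in 33.9% of these, against 4.99% and 9.45% of the rest. Bace2 was found in 30.4% against 19.7%, and Pi15 in 17.3% against 35.4%.

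Not all of these orders were seen after 5-Aza in H3R26C. The 955 cells with mitosis genes carried Tmem176a in 4.19% and Tmem176b in 5.65%, below the 7.34% and 9.42% of the other cells. In the lowest mt- quartile Tmem176a and Tmem176b were found in 5.35% and 6.46%, and in the highest in 8.29% and 10.4%. Pi15 kept its order, with 7.33% of the cells with mitosis genes against 18.1% of the others and 8.56% of the lowest against 26.2% of the highest mt- quartile. Bace2 was found in 10.7% and 10.4% of the cells with and without mitosis genes. The 6018 cells with a UMI of both Spp1 and Ly6a still carried Tmem176a and Tmem176b more often than the rest, in 7.76% and 9.505% against 3.87% and 6.87%. The 6 mitosis genes, summed, were also higher in H3WT cells with either Tmem176 gene than in the others. They stood at 951 against 154 CPM with DMSO (60 cells) and 491 against 310 CPM with 5-Aza (151 cells). In H3R26C these were 798 against 256 CPM and 440 against 659 CPM. For H3WT cells with Pi15 they were 154 against 172 CPM and 170 against 325 CPM. Spp1 was found in 80.0% of H3WT DMSO cells with either Tmem176 gene and 22.6% of the others. Whether the differences between the libraries exceed those between cultures was not tested, with 1 library each.

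**Figure D5:**
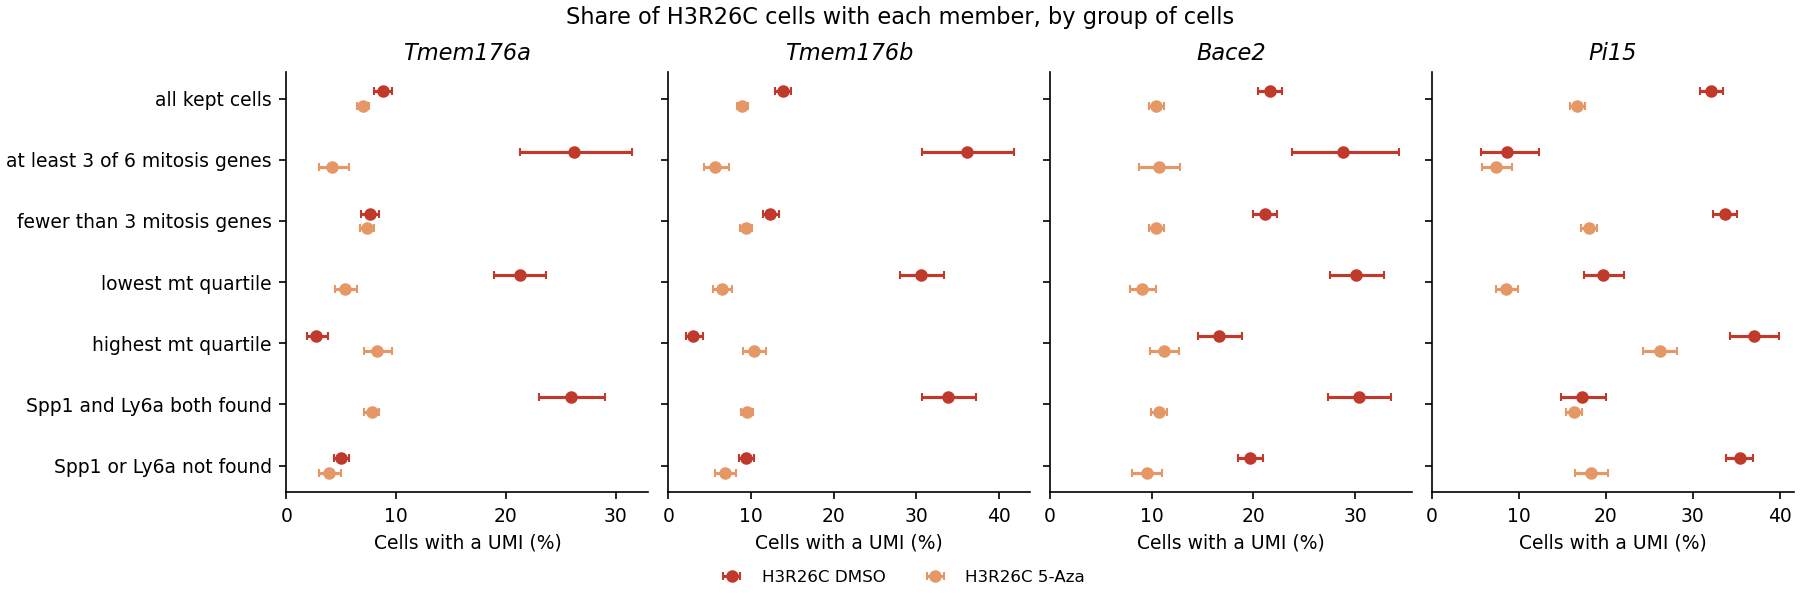
Percent of H3R26C DMSO and H3R26C 5-Aza cells with a UMI of each member after thinning to 5000 UMIs, for all cells and for cells grouped by mitosis genes, mt- share, or a UMI of both Spp1 and Ly6a, with exact 95% intervals. With DMSO, Tmem176a and Tmem176b are high in cells with mitosis genes, of low mt- share or with Spp1 and Ly6a, where Pi15 is low; after 5-Aza the Tmem176 shares in the cells with mitosis genes lie below those of the other cells.

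After 5-Aza, H3R26C still exceeded H3WT for the 4 members, by 7.90-fold for Tmem176a (6.88 to 9.11), 4.80-fold for Tmem176b (4.39 to 5.27), 7.98-fold for Bace2 (7.06 to 9.04) and 2.57-fold for Pi15 (2.44 to 2.71). All 4 were higher by at least 1 on the log2 scale, as were 4.79% of the 12669 genes tested. The members were chosen on the DMSO libraries, which this comparison does not use, but the same lines were compared. The fold was closest to that in DMSO for Bace2, by 0.37 less on the log2 scale, and farthest for Pi15, by 1.71 less.

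Within H3R26C, the level after 5-Aza was 76.6% of that with DMSO for Tmem176a (72.3 to 81.2), 60.0% for Tmem176b (57.3 to 62.7), 45.2% for Bace2 (43.2 to 47.3) and 44.6% for Pi15 (43.2 to 46.1). Bace2 and Pi15 were lower by at least 1 on the log2 scale, as were 3.09% of the 12551 genes tested. This comparison shares the H3R26C DMSO library with the choice of the members, which was for a high level in it. When the cells with mitosis genes were left out of all libraries, Tmem176a stood at a log2 ratio of 0.019 in place of -0.37, and Tmem176b moved from -0.72 to -0.37.

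The thinned shares in H3R26C 5-Aza were 6.94% for Tmem176a, 8.95% for Tmem176b, 10.5% for Bace2 and 16.7% for Pi15, or 0.79, 0.65, 0.48 and 0.52 times those with DMSO. The mean thinned UMIs per cell with the gene were 1.13, 0.98, 0.97 and 0.87 times those with DMSO. With DMSO this mean was 1.35, 1.71, 1.31 and 2.03 UMIs, and it cannot be below 1. A cell that expresses a gene can read 0 at this depth, so these values do not separate fewer cells from less RNA per cell. At least 1 member was found in 33.0% of H3R26C 5-Aza cells and at least 3 in 1.60% (1.33 to 1.91).

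In H3WT, 5-Aza and DMSO differed by less than 1 on the log2 scale for every member. The level after 5-Aza was 1.38 times that with DMSO for Tmem176a (1.12 to 1.69) and Tmem176b (1.21 to 1.57), 1.51 times for Pi15 (1.40 to 1.62) and 0.53 times for Bace2 (0.46 to 0.62). Of the 12306 genes tested, 4.26% were higher and 0.276% lower by at least 1. No member reached its H3R26C level in H3WT 5-Aza. Each of the 4 comparisons shares its libraries with other comparisons, so their values are not independent.

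Cells with many skeletal muscle markers, seen after 5-Aza, held the Tmem176 genes, and in H3R26C they held little Bace2 or Pi15. In H3R26C 5-Aza the cells with at least 8 of 12 muscle markers carried Tmem176a in 13.0% (8.77 to 18.4) and Tmem176b in 16.9% (12.1 to 22.7), above the 6.94% and 8.95% of all cells. In H3WT 5-Aza 134 such cells carried Tmem176a in 8.21% and Tmem176b in 10.4%, against 0.90% and 2.04% of all cells. Bace2 was found in 0 of them, which allows a share of up to 2.24%. This is above the 1.47% of all cells, so no lower share was established there. After 5-Aza, leaving out every cell with at least 3 muscle markers kept all 4 members higher in H3R26C than in H3WT by at least 1 on the log2 scale. With all cells kept, 4.79% of all genes tested were higher.

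Blood cell markers were given because the Tmem176 genes are known from myeloid cells. The 8 markers summed to between 12.4 and 24.3 CPM in the 4 libraries, and Itgax, Flt3 and Adgre1 were at or below 0.0271 CPM in each. Of 3 tested between H3R26C and H3WT in DMSO, Cd74 was higher by at least 1 on the log2 scale (11.3 against 5.10 CPM). Cd68 was lower by at least 1 (1.89 against 4.98 CPM), where 1.82% of all genes were higher and 0.589% lower. In H3R26C 5-Aza Cd74 stood at 10.1 CPM and Cd68 at 10.7 CPM. In H3R26C DMSO the 8 markers summed to 18.6 CPM in cells with either Tmem176 gene and 15.8 CPM in the others, and Ptprc was at 0, with 4 and 2 of the 8 markers at 0 in those cells. In H3R26C 5-Aza they summed to 46.3 against 21.3 CPM, and Ptprc stood at 1.27 CPM over all cells. This was not particular to blood markers, since 5 endothelial markers summed to 21.8 against 9.06 CPM in the same cells. Nor was it particular to the Tmem176 genes. In cells with and without Bace2 the blood markers summed to 34.0 and 23.1 CPM and the endothelial markers to 21.5 and 9.29 CPM. The part of these markers in the Tmem176 levels was not tested.

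Most relatives of the members were low or close between libraries. All 16 Ms4a genes counted were below 1 CPM in every library. Of the secretases and amyloid precursor genes, 12 besides Bace2 were tested and 0 were higher or lower by at least 1 on the log2 scale in any of the 4 comparisons. Over all genes tested, 1.82% were higher and 0.589% lower between H3R26C and H3WT with DMSO, and 4.79% and 2.64% with 5-Aza. Between 5-Aza and DMSO these shares were 8.04% and 3.09% in H3R26C, and 4.26% and 0.276% in H3WT. A count of 0 among so few genes is not set apart from these shares. Bace1 stood at 29.5 CPM in H3WT DMSO, 24.7 in H3WT 5-Aza, 30.98 in H3R26C DMSO and 25.4 in H3R26C 5-Aza. Of 4 tested genes whose proteins BACE2 can cut, 0 passed this line in any comparison, again not set apart from those shares. Pmel stayed below 1 CPM. The largest log2 ratio among them between H3R26C and H3WT in DMSO was that of Vcam1, an adhesion molecule, 0.80, from 69.7 CPM in H3WT and 122 in H3R26C.

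Of the CAP superfamily, 0 of 3 tested genes besides Pi15 passed the line between H3R26C and H3WT in DMSO, where 1.82% of all genes were higher and 0.589% lower. After 5-Aza, Pi16, a marker of a fibroblast progenitor, was lower in H3R26C (34.8 CPM) than in H3WT (105 CPM), and R3hdml was higher (2.84 against 0.52 CPM), out of 5 tested, where 2.64% of all genes were lower and 4.79% higher. Between the H3R26C libraries, Crispld2 stood at 0.345 CPM with DMSO and 2.07 CPM with 5-Aza and R3hdml at 0.21 and 2.84 CPM, the 2 of 5 past the line, where 8.04% of all genes were higher. The median log2 ratio of the CAP genes besides Pi15 in these 3 comparisons was -0.11, 0.33 and 0.83, beside 0.03, -0.03 and -0.03 over all genes tested.

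The genes next to the members were nearly silent. Of the 3 nearest annotated genes on each side of the Tmem176 pair, which include Gimap3 and Aoc1, 1 UMI was counted in all 4 libraries together. Beside Bace2, Fam3b had 30 UMIs in H3R26C 5-Aza and at most 1 elsewhere, and Tmprss2 and Ripk4 had at most 2 in any library. Beside Pi15, Crispld1, another CAP gene, had 1, 5, 17 and 42 UMIs in H3WT DMSO, H3WT 5-Aza, H3R26C DMSO and H3R26C 5-Aza, and Gdap1 had 3, 8, 10 and 7. None of these genes reached 1 CPM.

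The genes most like each member across the 4727 H3R26C DMSO cells were named by the highest Pearson r of log2(thinned UMIs + 1), among 8360 genes found in at least 5% of these cells. These correlations describe cells of 1 library that share depth and cell state. Tmem176a and Tmem176b were each most like the other (r = 0.45), then like Spp1 (0.31 and 0.33) and Lxn, a carboxypeptidase inhibitor (0.27 and 0.31). The contractile gene Acta2 was named for both (0.25 and 0.29), Anxa2 for Tmem176a and Cxcl12 for Tmem176b. In H3R26C 5-Aza the r of the Tmem176 pair was 0.55, while those with Spp1 were 0.09 and 0.08 and those with Acta2 -0.05 and -0.02.

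Bace2 had lower values. Its highest were with Tmem176b (0.19), Csrp2 (0.18), Ccn3 (0.17), Tmem176a (0.16) and Slc1a3, a glutamate transporter (0.15). In H3R26C 5-Aza these values were 0.11, 0.04, 0.02, 0.10 and -0.008. Pi15 was most like Timp2, an inhibitor of metalloproteinases (0.32), Vcan, a proteoglycan (0.28), Ptn (0.26), Clec3b (0.24) and Mme (0.22). In H3R26C 5-Aza the r of Pi15 was 0.17 with Timp2, 0.27 with Vcan, 0.25 with Ptn, 0.22 with Clec3b and 0.26 with Mme. In the H3WT libraries the r of Pi15 with these genes ran from 0.026 to 0.10. No gene was named for both Pi15 and a Tmem176 gene.

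For the sum of the 4 members the most like genes were Slc1a3, Csrp2, Mme, Efemp1 and Vcan, with r from 0.22 to 0.27. In H3R26C 5-Aza their r was 0.07, -0.03, 0.14, 0.15 and 0.11. Efemp1, a fibulin of the extracellular matrix, was higher in both H3R26C libraries, at 8.36 CPM in H3WT DMSO, 25.6 in H3WT 5-Aza, 87.9 in H3R26C DMSO and 206 in H3R26C 5-Aza. Unlike the members, it was higher in H3R26C 5-Aza than in H3R26C DMSO. It was found in 36.9% of H3R26C DMSO cells with Bace2 and 28.9% of all cells of that library.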

How the data were processed

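UMI counts of 4 libraries, 1 per condition, were analysed. The authors counted reads on mm10 with Cell Ranger, whose version the file headers give as 6.1.0, and deposited whole-number counts per gene and barcode without normalization. Barcodes with at least 5000 UMIs, at least 1500 genes and at most 20% mt- UMIs were kept, and no doublets were removed. Counts were summed per library and scaled to CPM. Log2 ratios used a pseudocount of 1 CPM over genes averaging 1 CPM or more in the libraries compared, and a ratio of at least 1 in size was the line for higher or lower. Shares and co-detection were taken from 1 draw in which each cell was thinned without replacement to 5000 UMIs, and co-detection was repeated over 20 further draws. Intervals (95%) were exact Poisson for counts and Clopper-Pearson for shares, and PCR copies were already collapsed by UMI. A count of 0 was taken to allow 3 counts. Genes named are from the 4 members, the 5 most like each and their sum, the 3 nearest on each side, and the lists. Not every list gene past the line is named, so a gene left unnamed may lie past it.

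With 1 library per condition no test was run and no p-value is given. The members, lists, cell groups and comparisons were chosen with earlier results of these data known. Kept cells held between 84060490 and 110712425 UMIs per library. 0 columns were left unmapped. Steps ran with pandas 2.3.3, scipy 1.17.1, numpy 2.4.6 and matplotlib 3.10.9 in Python 3.11.15, and were tested on simulated data. Other cell filters, pseudocounts, scalings, thinning depths and cell exclusions were tried. Positions came from GENCODE M21 and promoter windows from RefSeq on GRCm38.p6, which held Tmem176a and Tmem176b, 2 of the 4 members.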

Additional observations from a re-analysis of the deposited data

Results flagged for a closer look

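The response to 5-Aza went in opposite directions in the H3WT and H3R26C lines for 3 of the 4 members. On the log2 scale Tmem176a stood at 0.32 in H3WT and -0.37 in H3R26C, Tmem176b at 0.39 and -0.72, and Pi15 at 0.56 and -1.15. The difference was not tested, since each value rests on 1 library per condition, and the H3R26C DMSO library was used to choose the members. For Tmem176a the H3R26C value was 0.019 when cells with mitosis genes were left out. The H3WT values were 0.098 for Tmem176a and 0.039 for Tmem176b when muscle-marker cells were left out, so for these genes the opposite directions rest in part on which cells are counted.

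The barcodes with at least 500 and fewer than 2000 UMIs, which the main comparisons left out, held each member in both H3R26C libraries, and the Tmem176 genes in H3WT 5-Aza, above its level in the same class of H3WT DMSO barcodes. Those with at least 1000 UMIs, at least 500 genes and at most 20% mt- UMIs entered the looser cell filter. In that class Pi15 stood at 138 CPM in H3R26C DMSO and 86.3 CPM in H3R26C 5-Aza, against 13.1 CPM in H3WT DMSO. These levels were 114% and 160% of those in the kept cells. Bace2 stood at 26.8 CPM in H3R26C DMSO and 14.3 CPM in H3R26C 5-Aza, against 2.09 CPM from 4 UMIs.

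Tmem176a stood at 5.21 CPM in H3R26C DMSO barcodes of this class, 15.3 CPM in H3R26C 5-Aza and 4.10 CPM in H3WT 5-Aza, with 0 UMIs in H3WT DMSO. Tmem176b stood at 10.4, 27.0 and 16.0 CPM in the same order, with 1 UMI in H3WT DMSO. In H3R26C DMSO these were 19.2% and 20.1% of the levels in kept cells, while the interval for Pi15, 119 to 160 CPM, held its level in kept cells, 121 CPM. In H3WT 5-Aza Tmem176b stood at 247% of the level in kept cells.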

How the results depend on the processing

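No paired analysis was possible because there was 1 library per condition. All 4 members were higher in H3R26C than in H3WT by at least 1 on the log2 scale, with DMSO and with 5-Aza, under each of the 9 alternatives for summed levels: a stricter and a looser cell filter, a pseudocount of 0.1 CPM, median-of-ratios scaling, the mean of per-cell CPM, and leaving out the top 5% of cells by UMIs, muscle-marker cells, mitosis-gene cells or the highest mt- quartile. The last 2 were chosen after seeing the data. With DMSO this contrast was the one used for the choice of members, so its persistence supports nothing. Leaving out muscle-marker cells removed no cell from either DMSO library, so it was no alternative there. With the main settings 1.82% of all genes tested were higher with DMSO and 4.79% with 5-Aza. These shares were not taken under the alternatives. The 5-Aza over DMSO log2 ratio in H3R26C ranged over them from -0.69 to 0.019 for Tmem176a, which turned sign without mitosis-gene cells (0.019), from -1.05 to -0.37 for Tmem176b, from -1.25 to -1.04 for Bace2 and from -1.38 to -1.06 for Pi15. In H3WT it ranged from 0.098 to 0.52 for Tmem176a, 0.039 to 0.70 for Tmem176b, -0.89 to -0.69 for Bace2 and 0.47 to 0.60 for Pi15. In H3R26C DMSO the co-detection ratio of Tmem176a with Pi15 ranged from 0.49 to 0.78 over 8 alternatives and that of Bace2 with Pi15 from 1.05 to 1.21. Leaving out muscle-marker cells was among these alternatives and changed neither ratio. Several of these alternatives reused cells of the reported draw, whose 1.18 for Bace2 with Pi15 lay above all 20 further draws (0.96 to 1.08). The range from 1.05 to 1.21 therefore establishes no excess of this pair. The 20 further draws of thinning were also chosen after seeing the data.

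Shares depend on depth by construction. Cells with at least 3 members were 17.9% of H3R26C DMSO and 6.27% of H3R26C 5-Aza without thinning, 10.8% and 4.73% when thinned to 10000 UMIs, and 5.13% and 1.30% without the highest mt- quartile. Tmem176a in H3WT DMSO rests on 22 thinned cells, which limits the precision of its share. With 1 library per condition, the spread between cultures is unknown for every value.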

Other observations

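Summed adipocyte markers were lower in the H3R26C DMSO cells with a Tmem176 gene or Bace2 than in the others. Over all cells of that library Plin4 (75.8 CPM) and Fabp4 (56.4 CPM) made up most of the sum of 194 CPM, so the sums say little of the other markers. The 8 markers summed to 49.5 CPM in the 811 cells with either Tmem176 gene and 230 CPM in the others, and to 70.3 CPM in the cells with Bace2 against 229 CPM. In the cells with Pi15 they summed to 121 CPM against 226 CPM. In H3WT DMSO they summed to 73.3 CPM in the 60 cells with either Tmem176 gene against 148 CPM. In the H3WT DMSO cells with Bace2 they summed to 142 against 147 CPM, and in those with Pi15 to 106 against 149 CPM. In H3R26C 5-Aza they summed to 168 CPM in the cells with either Tmem176 gene and 134 CPM in the others. All cells of a library were used, cells are not replicates, and the part of these markers in the members' levels was not tested.

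In both 5-Aza libraries the summed muscle markers were higher in the cells with either Tmem176 gene than in the others. The 12 muscle markers summed to 9750 CPM in the 151 H3WT 5-Aza cells with either Tmem176 gene and 1786 CPM in the others, and to 4045 against 2302 CPM in H3R26C 5-Aza. In H3WT 5-Aza these markers summed to 741 CPM in cells with Pi15 against 2089 CPM. In the 88 H3WT 5-Aza cells with Bace2 they summed to 340 against 2031 CPM. In H3R26C 5-Aza they summed to 797 CPM in cells with Pi15 against 2829 CPM, and to 822 CPM in cells with Bace2 against 2715 CPM. The shares of cells moved little there when every cell with at least 3 muscle markers was left out. Tmem176a was then found in 6.89% in place of 6.94%, and Tmem176b in 8.72% in place of 8.95%. In H3WT 5-Aza these shares were 0.62% in place of 0.90% and 1.70% in place of 2.04%.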
